A study of Mus musculus with 6 samples.

Results

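The genes described here are 10 growth arrest genes linked to p53, measured in germinal vesicle (GV) oocytes, the immature eggs still held in meiotic prophase with an intact nucleus. They were chosen by name (Cdkn1a, Cdkn1b, Btg1, Btg2, Ccng1, Gtse1, Plk2, Plk3, Gadd45a and Gadd45b), and each matched 1 row, giving 10 of the 49315 genes in the count table. The groups were 3 Control mice and 3 Rpa1 OcKO mice, in which Rpa1 is conditionally deleted in oocytes only. All mice were 4 to 5 weeks old and primed with PMSG (pregnant mare serum gonadotropin), and each library pooled about 20 oocytes freed of cumulus cells. The sources used here do not name the Cre line, the strain or the exact genotype of the Control mice.

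When DNA is damaged, p53 is stabilized and switches on genes that hold the cell cycle. CDKN1A (p21) and its relative CDKN1B (p27) bind and inhibit cyclin-dependent kinases, BTG proteins slow proliferation and recruit deadenylases to mRNA, and GADD45 proteins activate stress kinase signalling. CCNG1 works with MDM2 and protein phosphatase 2A to lower p53, GTSE1 carries p53 out of the nucleus, and PLK2 and PLK3 are Polo-like kinases induced by stress. A GV oocyte does not proliferate, and its prophase arrest is kept by low CDK1 activity. RPA1, the large subunit of replication protein A, binds and protects single-stranded DNA when it is copied, recombined or repaired.

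Promoter sequences are shown for 4 genes that the results turn on, Cdkn1a, Ccng1, Btg2 and Plk2. Each was higher in every OcKO library than in any Control library. Of these, Cdkn1a and Ccng1 carry a p53 motif in the bases shown, and Btg2 and Plk2 do not. Gadd45a, which carries a p53 half-site and overlapped between the groups, is not shown. Each line gives the 250 bases before a RefSeq start site on the gene's own strand (GRCm38.p6). Capitals mark matches to the p53 motif or to the cyclic AMP response element TGACGTCA. In Cdkn1a they cover a p53 half-site and a full site, in Ccng1 a full site, and in Btg2 and Plk2 the cyclic AMP response element.
Cdkn1a, first start site, chr17:29090729-29090978, plus strand: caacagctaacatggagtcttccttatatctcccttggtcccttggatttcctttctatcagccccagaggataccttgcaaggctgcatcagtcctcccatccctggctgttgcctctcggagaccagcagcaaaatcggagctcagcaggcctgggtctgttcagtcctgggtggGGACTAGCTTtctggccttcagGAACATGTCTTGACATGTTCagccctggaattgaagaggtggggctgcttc
Ccng1, chr11:40755287-40755536, minus strand: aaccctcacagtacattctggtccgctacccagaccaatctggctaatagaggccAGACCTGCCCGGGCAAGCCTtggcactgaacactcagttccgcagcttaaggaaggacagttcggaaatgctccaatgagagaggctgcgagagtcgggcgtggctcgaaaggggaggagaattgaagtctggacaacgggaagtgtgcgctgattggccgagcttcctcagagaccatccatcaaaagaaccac
Btg2, chr1:134079156-134079405, minus strand: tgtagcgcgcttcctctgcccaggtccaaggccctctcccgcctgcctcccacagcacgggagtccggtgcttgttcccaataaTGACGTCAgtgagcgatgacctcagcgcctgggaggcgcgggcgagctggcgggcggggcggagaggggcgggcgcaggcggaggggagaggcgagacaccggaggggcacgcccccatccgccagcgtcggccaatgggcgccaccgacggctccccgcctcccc
Plk2, chr13:110394794-110395043, plus strand: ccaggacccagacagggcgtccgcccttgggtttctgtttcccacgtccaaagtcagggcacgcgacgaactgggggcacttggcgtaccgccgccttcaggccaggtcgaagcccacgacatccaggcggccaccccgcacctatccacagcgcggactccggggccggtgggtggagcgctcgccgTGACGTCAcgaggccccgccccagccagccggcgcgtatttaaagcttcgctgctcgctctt

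All 10 genes had a RefSeq window, 12 start sites in all, since Cdkn1a and Gtse1 have 2 each. A p53 full site was searched as a pair of 10-base half-sites side by side with at most 1 base off the consensus. It was present in the windows of Cdkn1a (bases 51 to 32 before the first start site) and Ccng1 (bases 195 to 176), and in 0.0761% of all 32851 windows, or 25. An exact half-site, present in 7.13% of all windows, was found in Cdkn1a, Ccng1 and Gadd45a. Gadd45a carried it at bases 40 to 31. Half-sites and full sites may overlap, and the half-site reads the same on both strands. TGACGTCA was found in Btg2 (bases 166 to 159) and Plk2 (bases 62 to 55), and in 1.55% of windows. The windows of Cdkn1b, Btg1, Gtse1, Plk3 and Gadd45b held neither motif; this says only that these letters are not in those bases. A match is a description of the sequence, and binding was not measured.

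The libraries held 36280148 to 44575222 counts each. The 15 oocyte marker genes summed to 40470 to 63840 CPM in Control and 34210 to 44400 CPM in OcKO. CPM are counts scaled to library size, with TMM factors. Of the 15 genes, 0 were called by edgeR or limma voom and 1 was lower by DESeq2, against 1.71% of tested genes. At an unadjusted edgeR p under 0.05, 2 were lower and 0 higher, against 5.21% and 5.93% of tested genes. Log2 fold changes were negative for 12, against 7908 of 16060 tested genes. For 4, every OcKO library was lower than any Control library, against 8.67% of tested genes. With library size alone 1 was lower and 1 higher in this way, against 5.26% and 14.49%. Rpa1, the deleted gene, fell in OcKO from 150 ± 8.86 to 6.25 ± 1.89 CPM (SD, n = 3, adjusted p = 0.0064 by edgeR). Granulosa and cumulus markers, 10 of 12 tested, summed to 72.7 to 124 CPM in Control and 102 to 120 CPM in OcKO. The median log2 fold change of those 10 was 0.345, or 0.93 by limma voom, with 7 positive and 3 negative. Stroma and theca markers, 7 of 9 tested, summed to 7.73 to 14.4 CPM in Control and 11.1 to 20.1 CPM in OcKO. The median log2 fold change of those 7 was 0.93, or 2.83 by limma voom, with 5 positive. In that list Cyp17a1, a theca cell enzyme gene, had 0 counts in the 3 Control libraries and averaged 0.619 ± 0.154 CPM in OcKO (SD, n = 3). Col3a1 averaged 0.0652 ± 0.0451 CPM in Control and 0.741 ± 0.388 CPM in OcKO. Dcn, 1 of the 2 negative genes, averaged 4.40 ± 3.90 CPM in Control and 0.663 ± 0.975 CPM in OcKO. Cyp11a1 alone made up 16.9 CPM of the 20.1 CPM in OcKO replicate 3. Blood, immune and endothelial markers, 7 of 14 tested, summed to 97.5 to 133 CPM in Control and 103 to 131 CPM in OcKO. Most of this was Pecam1, and the other 13 genes summed to 6.31 to 26.3 CPM in Control and 6.90 to 20.7 CPM in OcKO. The median log2 fold change of the 7 tested blood, immune and endothelial genes was -0.50, or -0.54 by limma voom, with 2 positive and 5 negative. Of the stroma and theca genes 2, Cyp17a1 and Col3a1, were higher at an unadjusted p under 0.05 (edgeR), against 5.93% of tested genes. Both passed the filter on low counts through their OcKO libraries, so they could hardly have been lower. In these 3 lists (granulosa and cumulus, stroma and theca, and blood, immune and endothelial) edgeR, DESeq2 and limma voom called 0 genes. There, 0 genes were at 0 in all libraries. Their part in the results on the growth arrest genes was not tested. In pooled oocytes, more cells with a transcript and more transcript per cell cannot be told apart.

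Of the 10 genes, Btg2 alone rose in OcKO by edgeR's quasi-likelihood test (Benjamini-Hochberg adjusted p under 0.05 over 16060 tested genes), where 0.143% of all tested genes were called in either direction and 0.137% higher. All OcKO values exceeded all Control values for 6 of the 10 genes (Cdkn1a, Btg2, Ccng1, Gtse1, Plk2 and Gadd45b), against 10.7% of tested genes. They were below for 1, Plk3, against 8.67% of tested genes, but with library size alone in the CPM Plk3 overlapped and 0 of the 10 were below. The 6 remained above with that scaling, against 14.49% of tested genes. Cdkn1b, Btg1 and Gadd45a overlapped between the groups. The median log2 fold change (OcKO over Control) was 1.99 over the 10 genes and 0.01 over all tested genes. All 10 passed the filter on low counts. Cdkn1a, with 1, 28 and 18 Control counts, and Gadd45b, with 3, 0 and 40, owe this to their OcKO libraries, so they could hardly have been lower. Plk3, with 1, 7 and 12 OcKO counts, owes it to its Control libraries, so it could hardly have been higher.

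Unadjusted edgeR p-values were under 0.05 for 5 of the 10, all higher (Btg2, Ccng1, Gtse1, Cdkn1a and Plk2), and for 0 lower genes, against 5.93% and 5.21% of tested genes. DESeq2 called these same 5 higher, against 2.99% of tested genes, and limma voom called 0. The number of calls was 2, Btg2 and Ccng1, when edgeR's fit was run without its legacy option, an alternative added after the data were seen that called 0.137% of tested genes higher. It was 0 without any 1 of the 6 libraries.

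**Figure D1:**
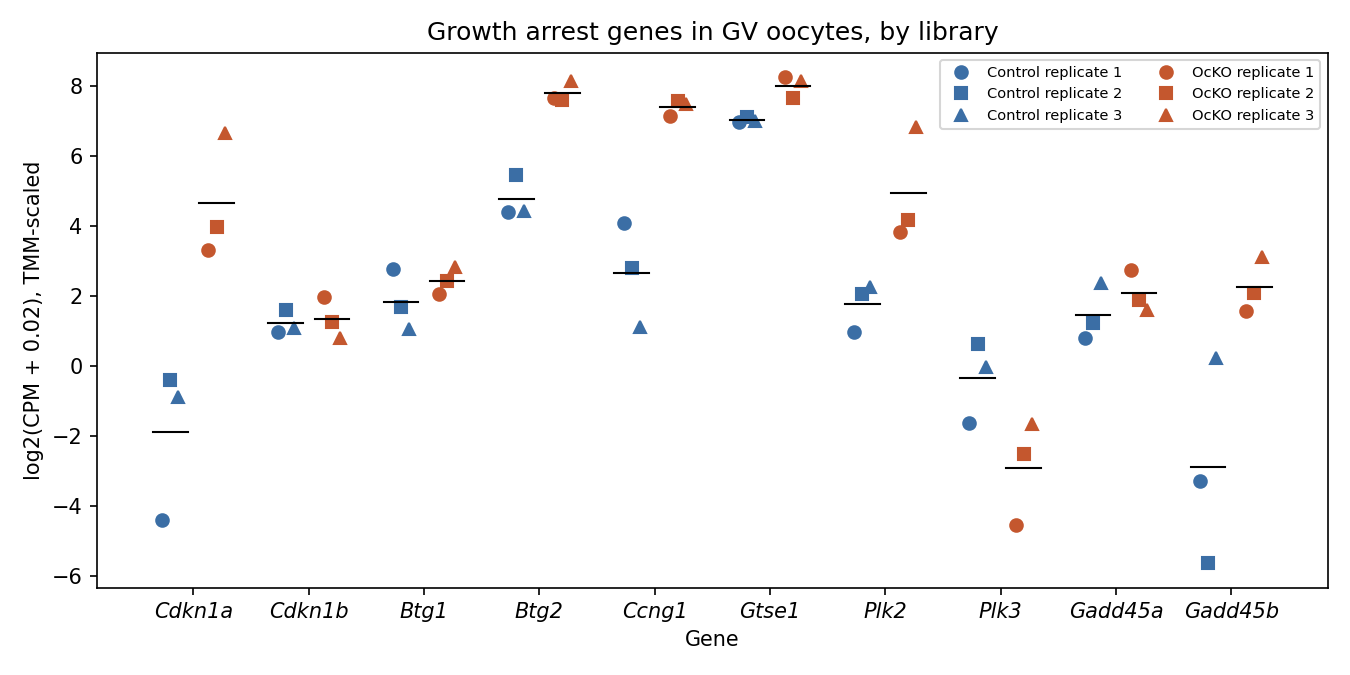
Level of each growth arrest gene in every library, as log2(CPM + 0.02) with TMM scaling; blue symbols are the 3 Control and orange symbols the 3 OcKO libraries, and black lines are group means on this scale. The groups separate upward for 6 genes, Plk3 separates downward only with TMM scaling, and OcKO replicate 3 lies well above the other OcKO libraries for Cdkn1a and Plk2.

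Among the CDK inhibitors, Cdkn1a was nearly absent from Control oocytes and present in every OcKO library, while Cdkn1b was low in both groups. Cdkn1a (chromosome 17, 29090979 to 29100722, plus strand, GRCm38) stood at 0.0276, 0.738 and 0.519 CPM in Control replicates 1 to 3 and at 9.80, 15.6 and 100.2 CPM in OcKO replicates 1 to 3. The lowest OcKO library was above the highest Control library, but OcKO replicate 3 held most of the OcKO signal. edgeR's log2 fold change was 6.60 (SE 1.35; adjusted p = 0.1199), and without OcKO replicate 3 it was 4.88 (adjusted p = 0.327). DESeq2 gave 6.63 (adjusted p = 3.95e-09), and edgeR with a minimum of 5 CPM called Cdkn1a as well (adjusted p = 0.0339). Counts cover the whole gene, so transcripts from its 2 start sites, the first with the p53 full site printed above and the second with no p53 motif in its window, were not separated. A stretch of 262 bases is identical to AC167363.2, so some reads there may match both.

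Cdkn1b (chromosome 6, 134920401 to 134925513, plus strand) stood at 1.93, 3.01 and 2.07 CPM in Control and 3.88, 2.35 and 1.72 CPM in OcKO. The OcKO libraries spanned the Control range on both sides (log2 fold change 0.18, SE 0.77). The ratio of Cdkn1a to Cdkn1b within a library, which needs no scaling between libraries, was below 1 in each Control library and above 1 in each OcKO library. On the log2 scale of counts + 0.5 it was -5.55, -2.01 and -1.97 in Control and 1.33, 2.72 and 5.85 in OcKO.

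The regulators that act back on p53 include Ccng1 and Gtse1, which stood at different levels in Control oocytes. Ccng1 (chromosome 11, 40748552 to 40755311, minus strand) stood at 16.8, 6.88 and 2.13 CPM in Control and 140, 188 and 178 CPM in OcKO. Control libraries differed widely among themselves and OcKO libraries little, with a wide gap between the groups. Mean CPM was 19.6-fold higher in OcKO, and edgeR gave a log2 fold change of 4.29 (SE 0.70; adjusted p = 0.109), which was 5.21 without Control replicate 1 and 3.85 without Control replicate 3. Ccng1 passed 0.05 by DESeq2 (adjusted p = 6.72e-12), by edgeR without the legacy option (0.0079) and by edgeR with a minimum of 5 CPM (0.0090). It missed 0.05 by limma voom (0.163).

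Gtse1 (chromosome 15, 85859707 to 85876572, plus strand) had the highest mean level per length of the 10 in Control, and its Control libraries were close together. It stood at 123, 136 and 126 CPM in Control and 301, 199 and 278 CPM in OcKO. All OcKO libraries were above the Control range, with a mean 2.02-fold higher, a log2 fold change of 1.01 (SE 0.20) and an adjusted p of 0.1196 by edgeR and 5.75e-04 by DESeq2. When TMM was replaced by library size alone, the median of all tested genes shifted from 0.01 to 0.18 and Gtse1 from 1.01 to 1.19.

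**Figure D2:**
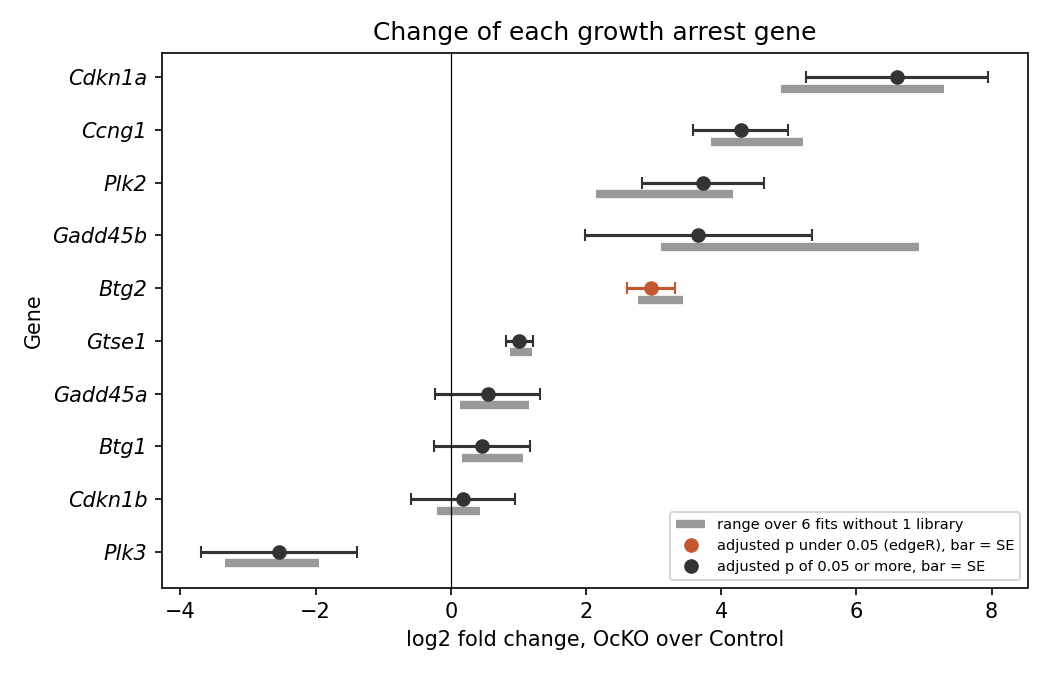
Log2 fold change of each growth arrest gene, OcKO over Control, with its standard error (points and bars, n = 3 per group) and the range over the 6 fits that leave out 1 library (grey bars). Btg2, at 2.96, is the 1 gene past the threshold, Cdkn1a has the largest value at 6.60, and Plk3 lies at -2.54.

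In the BTG family, Btg2 rose and Btg1 did not pass the test. Btg2 (chromosome 1, 134075170 to 134079120, minus strand) stood at 21.1, 43.9 and 21.5 CPM in Control and 199, 194 and 281 CPM in OcKO. The OcKO libraries lay close together and far above the highest Control library, replicate 2. Btg2 rose 7.79-fold by group means, from 28.8 ± 13.0 to 225 ± 49.1 CPM (SD, n = 3), with a log2 fold change of 2.96 (SE 0.36) and an adjusted p of 0.0450 by edgeR. The call was lost in each fit without 1 library (adjusted p of 0.0612 to 0.2895), where log2 fold changes lay between 2.77 and 3.43.

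Btg1 (chromosome 10, 96617001 to 96622813, plus strand) stood at 6.73, 3.16 and 2.05 CPM in Control and 4.11, 5.28 and 7.06 CPM in OcKO, with overlapping groups and a log2 fold change of 0.46 (SE 0.71). A stretch of 312 bases of Btg1 is 98.7% identical to Gm14519, which held 0 to 2 counts per library, so few reads were assigned to that copy. Btg1-ps1, a Btg1 pseudogene not among the copies found, stood at 2.65, 8.17 and 10.7 CPM in Control and 14.2, 10.8 and 11.5 CPM in OcKO. Whether Btg1 and Btg1-ps1 share reads was not tested. The log2 ratio of Btg2 to Btg1 was 1.65, 3.79 and 3.39 in Control and 5.60, 5.20 and 5.31 in OcKO. It was higher in all OcKO libraries, by 2.43 on average.

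Of the stress-induced Polo-like kinases, Plk2 was higher in each OcKO library than in any Control library, and Plk3 had lower mean levels in OcKO. Neither passed the edgeR test. Plk2 (chromosome 13, 110395044 to 110400844, plus strand) stood at 1.93, 4.11 and 4.75 CPM in Control and 14.2, 17.9 and 112 CPM in OcKO. As with Cdkn1a, all OcKO libraries were above Control and replicate 3 was far above the other two. edgeR's log2 fold change was 3.73 (SE 0.90; adjusted p = 0.154), or 2.15 without OcKO replicate 3 (adjusted p = 0.3345), and DESeq2 gave an adjusted p of 6.88e-05.

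Plk3 (chromosome 4, 117128655 to 117133963, minus strand) was scarce, with 11, 58 and 33 counts in Control and 1, 7 and 12 counts in OcKO. In CPM this was 0.303, 1.53 and 0.951 against 0.0228, 0.154 and 0.295, and OcKO replicate 3 was close to Control replicate 1, the lowest Control library. With library size alone these 2 libraries changed order, at 0.331 CPM in OcKO replicate 3 and 0.292 CPM in Control replicate 1. edgeR's log2 fold change was -2.54 (SE 1.15; adjusted p = 0.484). Plk3 passed the filter on low counts through its Control libraries, so it could hardly have been higher. Its exons share 84 bases with Tctex1d4 on the opposite strand, which held 0 counts in every library. The log2 ratio of Plk2 to Plk3 was 2.62, 1.42 and 2.30 in Control and 8.69, 6.76 and 8.50 in OcKO.

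Of the GADD45 genes, Gadd45b was higher in every OcKO library and Gadd45a overlapped. Gadd45b (chromosome 10, 80930091 to 80932204, plus strand) stood at 0.0827, 0 and 1.15 CPM in Control and 2.95, 4.20 and 8.54 CPM in OcKO. The 0 of Control replicate 2 allows up to 0.0791 CPM (3 counts, for counting error only), and Control replicate 3 held 40 of the 43 Control counts. edgeR's log2 fold change was 3.66 (SE 1.68; adjusted p = 0.488). It was 6.92 without Control replicate 3 (adjusted p = 0.207).

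Gadd45a (chromosome 6, 67035096 to 67037457, minus strand) stood at 1.71, 2.29 and 5.07 CPM in Control and 6.60, 3.67 and 3.00 CPM in OcKO, a log2 fold change of 0.55 (SE 0.78). It carries an exact p53 half-site before its start, and its libraries overlapped between the groups. Its exons share 337 bases with E230016M11Rik on the opposite strand, which held 0 to 2 counts; reads in that stretch may have gone uncounted. The log2 ratio of Gadd45a to Gadd45b was 4.16, 7.45 and 2.12 in Control and 1.16, -0.19 and -1.50 in OcKO.

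In the 4 pairs formed, the ratio of one gene to its relative did not overlap between the groups. Each pair holds a gene whose own levels already did not overlap (Cdkn1a, Btg2, Plk2 or Gadd45b), so this separation is not a separate result. The share among other gene pairs was not computed. The differences between group means, OcKO minus Control on the log2 scale, were 2.43 for Btg2 over Btg1 and 6.48 for Cdkn1a over Cdkn1b. They were -4.76 for Gadd45a over Gadd45b and 5.87 for Plk2 over Plk3. The difference for Gadd45a over Gadd45b leaned on Control replicate 2, where Gadd45b had 0 counts, and was -3.32 without that library and -3.27 with counts + 5. Each had an exact two-sided permutation p of 0.1 (also 0.1 when adjusted over the 4 ratios), the smallest that 3 against 3 libraries can give. The pairs were formed with earlier results of these data known.

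**Figure D3:**
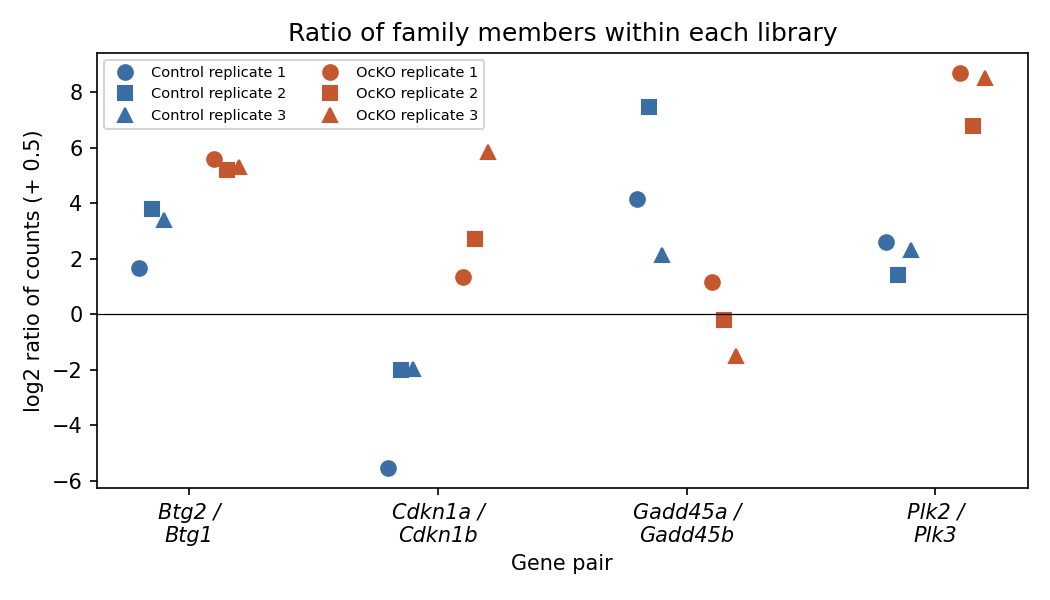
Log2 ratio of counts (each + 0.5) of 2 genes of a family within each library, with Control in blue and OcKO in orange. Control and OcKO libraries do not overlap for any of the 4 pairs, and Cdkn1a over Cdkn1b changes sign between the groups.

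Levels of different genes were compared per length, as RPKM (CPM per kilobase of exon). In Control the order began with Gtse1 at 47.25 ± 2.54 RPKM, Btg2 at 10.5 ± 4.75 RPKM and Ccng1 at 2.46 ± 2.14 RPKM (SD, n = 3). Gtse1 and Btg2, and Btg2 and Ccng1, did not overlap between their libraries, while every further neighbour did. Below Ccng1 came Gadd45a, Plk2, Btg1, Cdkn1b, Plk3, Gadd45b and Cdkn1a, from 1.72 ± 1.02 RPKM down to 0.193 ± 0.164 RPKM.

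In OcKO the order was Gtse1 (95.3 ± 19.65 RPKM), Btg2 (81.95 ± 17.9 RPKM), Ccng1 (48.0 ± 7.21 RPKM), Cdkn1a (18.8 ± 22.8 RPKM) and Plk2 (17.1 ± 19.7 RPKM). Gtse1 and Btg2 overlapped here, as did Ccng1 with Cdkn1a and Cdkn1a with Plk2. Then came Gadd45b, Gadd45a, Btg1, Cdkn1b and, last, Plk3 at 0.0622 ± 0.0539 RPKM. Cdkn1a thus held the lowest mean of the 10 in Control and the fourth highest in OcKO.

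The summed RPKM of the 10 genes was 61.4, 73.1 and 61.7 in Control and 240, 218 and 351 in OcKO. Gtse1 made up 72.5 ± 3.42% of that sum in Control and 36.25 ± 8.79% in OcKO (SD, n = 3). Btg2 made up 15.7 ± 5.36% and 30.6 ± 1.64%, and Ccng1 3.83 ± 3.56% and 18.5 ± 5.31%. In OcKO replicate 3, Cdkn1a made up 12.9% and Plk2 11.4%, against 1.83% to 3.23% and 2.105% to 2.93% in the other OcKO libraries. OcKO replicate 3 was the highest OcKO library for 6 of the 10 genes. It also had the highest stroma and theca marker sum (20.1 CPM), but 1 gene, Cyp11a1, made up 16.9 CPM of it. What sets that library apart was not tested.

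**Figure D4:**
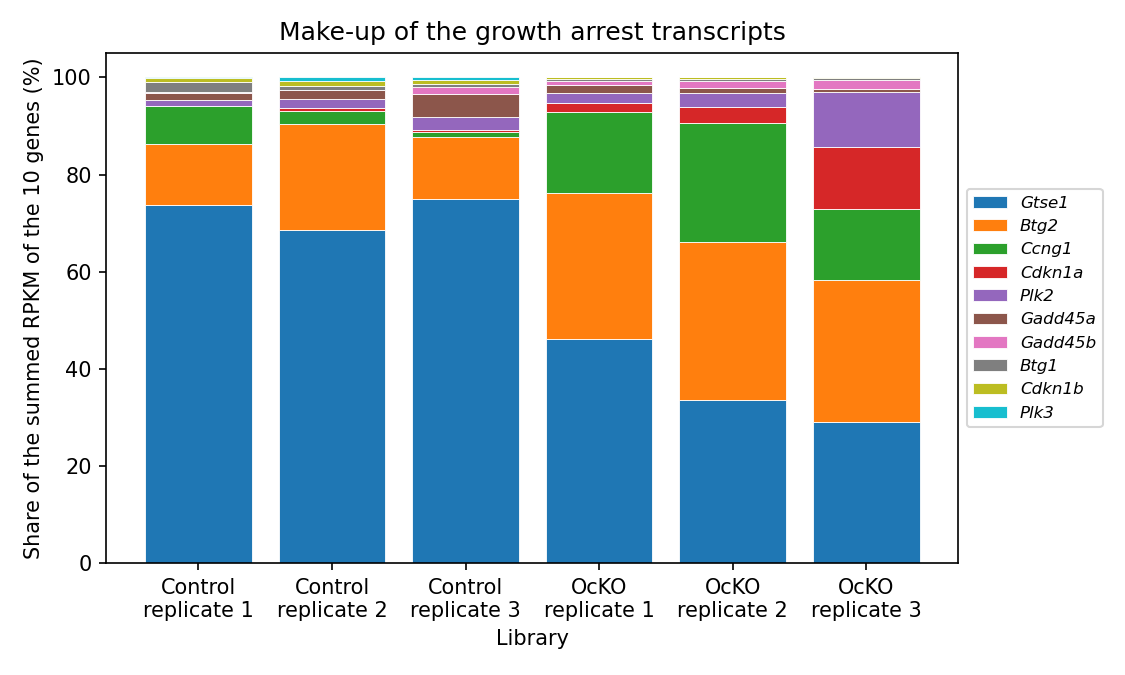
Share of each growth arrest gene in the summed RPKM of the 10 genes, per library (stacked bars, each totalling 100%). Gtse1 fills 68.6% to 75.05% of the Control bars and 29.1% to 46.1% of the OcKO bars, where Btg2 and Ccng1 are wider and OcKO replicate 3 has broad Cdkn1a and Plk2 segments.

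Relatives of the 10 genes were given by a list of 14: other CDK inhibitors, BTG and TOB genes, Ccng2, Gadd45g and the remaining Polo-like kinases. Of 11 tested, edgeR called 0, 3 had positive and 8 negative log2 fold changes, and the median was -0.15 (-0.0002 with library size alone). Unadjusted edgeR p-values under 0.05 numbered 0 higher and 1 lower, against 5.93% and 5.21% of tested genes. DESeq2 called 1 lower, against 1.71% of tested genes, and limma voom called 0. The lower one was Plk1, the mitotic Polo-like kinase, which averaged 518 ± 15.7 and 350.0 ± 32.1 CPM in Control and OcKO (SD, n = 3), with an edgeR adjusted p of 0.203. Tob2, an antiproliferative TOB protein gene, stood at 253 ± 37.4 and 185 ± 44.5 CPM, and Cdkn2d, an inhibitor of CDK4 and CDK6, at 6.69 ± 1.78 and 4.91 ± 0.899 CPM. Cdkn2a and Plk5 had 0 counts in every library.

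Cyclins and CDKs, the targets of the CDK inhibitors, were listed with 4 related cell cycle genes, Pcna, Cks1b, Cks2 and Skp2. Of 17 tested, 9 had positive and 8 negative log2 fold changes (median 0.07), and edgeR called 0. The 13 tested cyclins and CDKs proper had 7 positive and 6 negative. Unadjusted edgeR p-values under 0.05 numbered 1 higher and 2 lower, against 5.93% and 5.21% of tested genes. DESeq2 called 1 higher, against 2.99% of tested genes, and limma voom called 0. Ccnd2, which encodes the G1 cyclin D2, stood at 17.8, 22.6 and 16.6 CPM in Control and 42.1, 44.1 and 68.5 CPM in OcKO. Its groups did not overlap, and edgeR gave a log2 fold change of 1.44 (SE 0.31; adjusted p = 0.121). Ccnb3, a meiotic B-type cyclin gene, stood at 32.1 ± 8.86 and 17.5 ± 0.424 CPM, and Cdk1, the kinase that drives entry into division, at 187 ± 24.7 and 138 ± 10.6 CPM (SD, n = 3).

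RB and E2F genes, which act below the cyclins in G1 control, had a median of 0.03 over 17 tested, with 9 positive and 8 negative, and edgeR called 0. Unadjusted edgeR p-values under 0.05 numbered 1 higher and 1 lower, against 5.93% and 5.21% of tested genes. DESeq2 called 1 higher, against 2.99% of tested genes, and limma voom called 0. E2f7, which encodes an atypical E2F repressor, had 0 counts in all 3 Control libraries and 30, 194 and 234 counts in OcKO. It was at least 128-fold higher against 3 counts over the Control group, a bound for counting error only, and it passed the filter through its OcKO libraries. E2f2, an activator E2F gene, stood at 68.2, 58.0 and 41.5 CPM in Control and 32.95, 37.2 and 34.8 CPM in OcKO. E2f4, which encodes an E2F that works with RB relatives, averaged 53.5 ± 31.8 and 24.1 ± 18.5 CPM (SD, n = 3).

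Of 8 genes for binding partners of the arrest proteins, edgeR called 0, 5 had positive log2 fold changes (median 0.13), and 0 reached an unadjusted p under 0.05 in either direction. DESeq2 and limma voom called 0. Cnot7, the deadenylase that BTG proteins bind, stood at 546 ± 108 and 344 ± 226 CPM, and Prmt1, a methyltransferase bound by BTG proteins, at 17.4 ± 1.83 and 24.7 ± 6.03 CPM. Trp53, which encodes p53 itself, stood at 27.7 ± 18.8 and 42.6 ± 15.1 CPM (SD, n = 3; log2 fold change 0.62, SE 0.56).

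Other p53 targets, a list of 28 outside the arrest genes, had 24 tested members with a median of 0.80, 19 of them positive. edgeR called 3 higher (Eda2r, Pmaip1 and Mdm2) and 0 lower, against 0.137% and 0.00623% of tested genes. Eda2r and Pmaip1 passed the filter on low counts through their OcKO libraries, so they could hardly have been called lower. By DESeq2, 7 were higher and 0 lower, against 2.99% and 1.71% of tested genes, and by limma voom 0 were called. All OcKO values exceeded all Control values for 10, against 10.7%, and were below for 1, against 8.67%. With library size alone these were 13, against 14.49%, and 0, against 5.26%. Of the genes above, Bbc3 and Pidd1, like Eda2r and Pmaip1, passed the filter through their OcKO libraries, so they could hardly have been below. Mdm2, the gene for the ligase that degrades p53, averaged 193 ± 27.4 and 716 ± 178 CPM (SD, n = 3, edgeR adjusted p = 0.0450). Pmaip1, a proapoptotic gene, stood at 15.8, 21.98 and 69.2 CPM in OcKO, highest in replicate 3 as for Cdkn1a and Plk2, against 0.193, 0.0527 and 0.0864 CPM in Control. Eda2r, a death receptor gene, stood at 12.7, 15.2 and 16.6 CPM in OcKO and had 1 count in Control in all. Sesn2, a stress-inducible inhibitor of mTORC1 signalling, stood at 12.7, 1.74 and 6.51 CPM in Control and 85.3, 90.8 and 211 CPM in OcKO (edgeR adjusted p = 0.1196). Trp53inp1, a p53-induced nuclear protein gene, stood at 101 ± 17.0 and 362 ± 208 CPM, and Polk, a translesion polymerase gene, at 14.4 ± 3.85 and 40.9 ± 13.6 CPM (SD, n = 3). RNA levels alone do not show which factor acts on these genes.

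Btg2, Plk2, Plk3 and Gadd45b are also known as genes that respond quickly to growth signals, so immediate-early genes were listed beside them. Of 14 tested, edgeR called 0, 6 had positive and 8 negative log2 fold changes, and the median was -0.39. Unadjusted edgeR p-values under 0.05 numbered 1 higher and 1 lower, against 5.93% and 5.21% of tested genes. DESeq2 called 1 lower, against 1.71% of tested genes, and limma voom called 0. The summed level of the 19 genes was 189, 135 and 65.7 CPM in Control and 55.7, 43.7 and 64.9 CPM in OcKO. Atf3, a stress-induced transcription factor gene, stood at 0.193, 0.0791 and 0.0288 CPM in Control and 2.24, 1.32 and 1.53 CPM in OcKO. With 7, 3 and 1 Control counts, Atf3 passed the filter on low counts through its OcKO libraries, so it could hardly have been lower. Dusp1, a MAP kinase phosphatase gene, stood at 136, 79.0 and 18.8 CPM in Control and 18.2, 13.1 and 19.7 CPM in OcKO, and Egr1, a zinc finger factor gene, averaged 24.9 ± 15.9 and 11.8 ± 5.52 CPM (SD, n = 3). What these values have to do with those of the growth arrest genes was not tested.

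**Figure D5:**
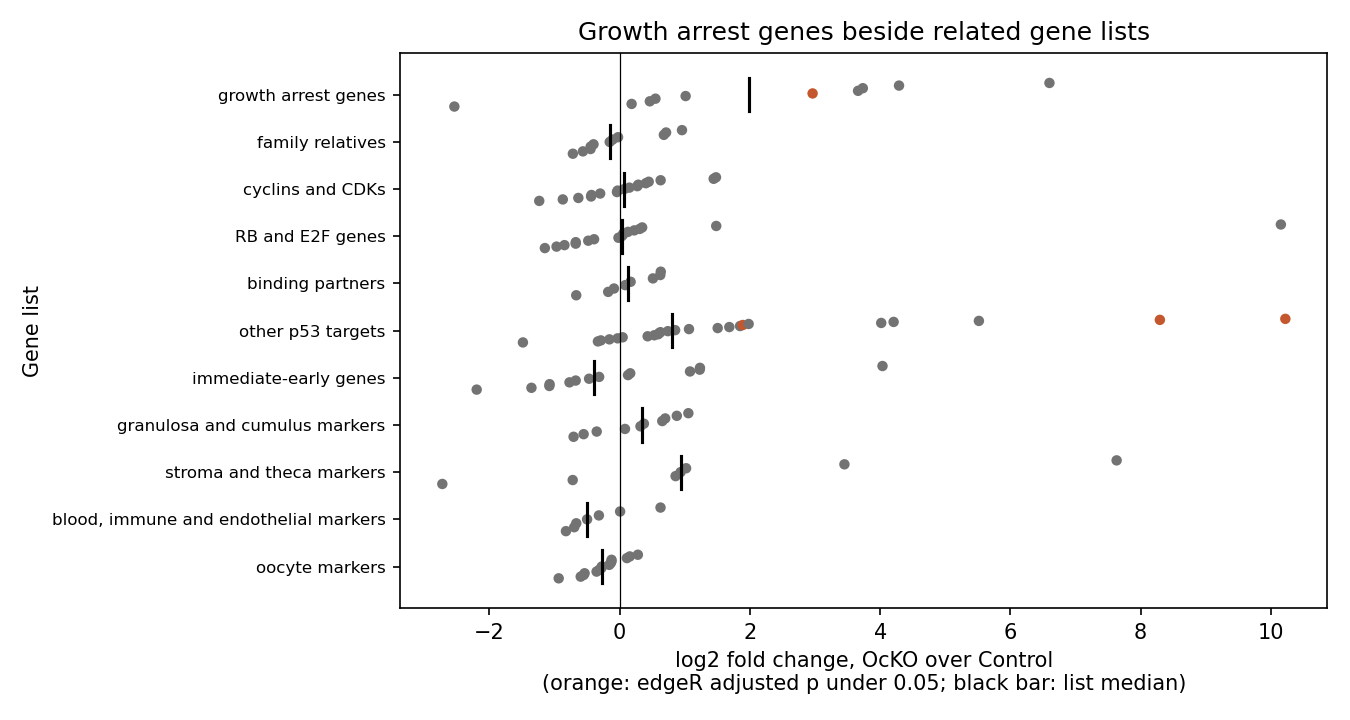
Log2 fold change, OcKO over Control, of every tested gene in the growth arrest set and in 10 related or marker lists (points), with list medians as black bars and genes past an edgeR adjusted p of 0.05 in orange. The growth arrest genes have a median of 1.99 and the other p53 targets 0.80, while family relatives, cyclins and RB and E2F genes centre near 0 and the 7 stroma and theca markers have a median of 0.93.

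The genes with the p53 full site in their window, a set defined after the site was seen in Cdkn1a, were few: 25 genes matched and 8 were tested. Of these, 2 are Cdkn1a and Ccng1, whose sites prompted the search. Of the other 6, 4 had positive log2 fold changes, against 51.1% of all tested genes with a window, and 3 had OcKO libraries above all Control libraries, against 1205 of those 10953 genes. The median of the 6 was 0.42, against 0.02 for all tested genes with a window. Calhm2, a channel-family gene called higher by edgeR, averaged 0.018 CPM in Control and passed the filter through its OcKO libraries. Rps27l, a ribosomal protein S27-like gene, stood at 34.6 ± 4.55 and 70.4 ± 20.9 CPM, and Mthfd1, an enzyme gene of folate metabolism, at 189 ± 31.7 and 288 ± 54.4 CPM (SD, n = 3). The 318 tested genes with TGACGTCA in the window, the motif of Btg2 and Plk2, had a median of 0.06.

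Among 9247 named genes with a mean of at least 5 CPM, the 5 whose log2 CPM tracked Btg2 most closely over the 6 libraries were Slc26a5, Ncapd2, Hilpda, Ssu72 and mt-Nd5. Pearson's r was 0.994, 0.990, 0.990, 0.989 and 0.986. The 6 points are the 2 groups of 3, which do not overlap for Btg2, so r is a description only. Slc26a5, which encodes prestin, averaged 12.6 ± 2.60 and 46.9 ± 2.54 CPM in Control and OcKO, and Hilpda, a lipid droplet protein gene, averaged 12.1 ± 2.18 and 26.1 ± 1.72 CPM (SD, n = 3).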

How the data were processed

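The authors deposited raw read counts per gene, as 1 table and as 1 file per library, and 0 values differed between them. The tools named per the submitters' processing notes are Trimmomatic 0.36, STAR 2.5.2b and featureCounts (Subread 1.5.2), and the build is GRCm38. Annotation release, strand setting and treatment of ambiguous reads: not given in the sources used here. Per the labels' protocols the kit was for low input; strand was not used here, so antisense overlaps are given.

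TMM-scaled CPM, and RPKM from the file's gene lengths, were computed here. Tests used the glmQLFit and glmQLFTest functions of edgeR 4.0.16 (R 4.3.3) with TMM and filterByExpr at a minimum count of 10, leaving 16060 genes, with Benjamini-Hochberg adjustment over all of them. Each SE is the size of the log2 fold change divided by the root of F. Alternatives were DESeq2 1.42.0, limma 3.58.1 voom, other scaling and filters, a replicate block and leaving out each library. Copies were sought with blastn 2.17.0 against GENCODE M21 transcripts (at least 200 bases at 95% identity). Motifs were searched on both strands. The edgeR and DESeq2 fits were tested on simulated data.

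Named genes are the 10 genes, Rpa1, called genes of each list, the 3 others with the smallest p per list and the 5 genes most like Btg2. From the marker lists the 3 stroma and theca genes with the smallest p are named, beside sums, medians and counts of the lists. Cyp11a1 and Pecam1 are named besides for their share of a sum, Bbc3 and Pidd1 for the filter, and Btg1-ps1 as a pseudogene. Genes of the p53 full site were named after their values were seen. The 10 genes and all lists were chosen with earlier results of these data known. Each library is 1 mouse, and p-values measure the spread between these libraries.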

Additional observations from a re-analysis of the deposited data

How the results depend on the processing

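By default 23 of 16060 tested genes were called (22 higher and 1 lower). Over the same genes 755 were called by DESeq2, 1 by limma voom and 0 with a replicate block. At a minimum of 5 CPM 68 of 10094 tested genes were called. Without 1 library 0 to 5 were called, of 16765 to 17597 tested. Of the 10 growth arrest genes, 1 was called by default; 5 were called by DESeq2, 3 at a minimum of 5 CPM (6 tested there: Btg2, Ccng1 and Cdkn1a were called), 2 by edgeR without the legacy option, 0 by limma voom, 0 with a replicate block and 0 in each fit without 1 library. The cause was not tested. Over the fits without 1 library, log2 fold changes ranged from 2.77 to 3.43 for Btg2 (3.03 with the replicate block, adjusted p = 0.308), 3.11 to 6.92 for Gadd45b, 4.88 to 7.30 for Cdkn1a and 2.15 to 4.17 for Plk2. Cdkn1b ranged from -0.20 (without OcKO replicate 1, a change of sign) to 0.43. The 4 ratios kept their direction under each pseudocount and without any 1 library, and their differences with a replicate block are the same by construction.

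The mouse numbers are shared by the groups but name different mice. Deviations from group means correlated at -0.037, -0.0448 and -0.045 between same-numbered libraries, so the numbers were not taken to pair libraries, and a call lost under the block is not a weaker effect. Depth limits Gadd45b and Cdkn1a in Control, where 1 count is worth 0.0264 to 0.0288 CPM, and Plk3 in OcKO, where it is worth 0.0220 to 0.0246 CPM.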
